A study of Rattus norvegicus with 60 samples.

Results

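Transforming growth factor beta (TGF-beta), activin and bone morphogenetic protein (BMP) signals were followed in the knee and the draining lymph node of rats with haemophilia A after a joint bleed. The set held 10 genes: the ligands Tgfb1, Tgfb2, Tgfb3, Inhba, Bmp2, Bmp4 and Gdf15, the receptors Tgfbr1 and Tgfbr2, and the antagonist Grem1. A gene entered the analysis through the microarray probe set whose only annotated symbol was that gene, the one with the highest mean where several exist. This gave 9 of the 10 genes, each with 1 probe set, out of 18166 genes and 36685 probe sets; Tgfbr2 was not analysed here.

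All 20 rats had haemophilia A, an inherited lack of clotting factor VIII, and tissue was taken 24 h after the procedure. In 11 rats a bleed was induced in the left knee, and the labels call that knee injured. The contralateral right knee of the same rats gave a second sample, and 9 sham-operated rats gave their right knee. Intra-articular knee tissue (labelled synovial tissue) and the popliteal lymph node of each knee were profiled on 60 arrays, with 11 bled, 11 contralateral and 7 sham knees and 11, 11 and 9 nodes. Too little RNA was obtained from 2 sham knees. Age and sex are not stated here, and every bled knee was a left knee while every sham and contralateral knee was a right knee, so side and bleed cannot be told apart.

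All values are log2 expression values as deposited, in which a difference of 1 is a doubling, and the array medians lay between 5.64 and 5.94. The tissue labels were checked against marker genes: the synovial lining gene Prg4 averaged 13.1 to 13.2 in the knee groups and 7.66 to 8.61 in the node groups, and the B cell gene Cr2 averaged 4.26 to 4.55 in knees and 11.3 to 11.5 in nodes. The sham knee array of rat C5 and the sham node array of rat C9 stood apart, with median correlations of 0.957 and 0.961 to the other arrays of their group, against 0.974 for the next lowest array.

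TGF-beta superfamily ligands are secreted dimers that bring together type I and type II receptor kinases. TGF-betas and activins signal mainly through Smad2 and Smad3, BMPs mainly through Smad1, Smad5 and Smad9. TGF-betas are secreted in a latent form and must be released from it, and BMPs are held back by secreted antagonists such as gremlin. In joints these ligands are known for their roles in matrix production, synovial fibrosis, wound repair and new bone and cartilage formation, and Gdf15 is a distant member best known as a circulating stress signal that acts on the receptor Gfral in the hindbrain.

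The start site regions of 4 genes are shown because these genes moved in opposite directions in the bled knee, as described further on: Inhba and Gdf15 were higher there, Tgfb2 and Tgfb3 lower. Each window is a RefSeq promoter sequence of the GRCr8 assembly that runs from 250 bases before to 50 bases after the annotated start, 300 bases in all, and 8 of the members had at least 1 entry. Capitals mark matches to 5 motifs searched on both strands. The core promoter motifs were TATAAA, which forms a TATA box, and GGGCGG, known as a GC box and bound by Sp1. The signal-responsive ones were TGANTCA, the site of AP-1 factors, and TGACGTCA, the full cAMP response element. The last was CAGACA, a Smad box with its flank, and no match of 1 motif was counted for another.
Inhba, chr17:53804459-53804758, minus strand: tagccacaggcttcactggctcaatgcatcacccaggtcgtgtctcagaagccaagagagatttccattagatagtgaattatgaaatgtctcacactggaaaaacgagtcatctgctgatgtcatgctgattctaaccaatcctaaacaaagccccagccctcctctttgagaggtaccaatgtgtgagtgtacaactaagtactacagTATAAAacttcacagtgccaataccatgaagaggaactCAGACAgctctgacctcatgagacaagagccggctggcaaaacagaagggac
Gdf15, chr16:18839015-18839314, plus strand: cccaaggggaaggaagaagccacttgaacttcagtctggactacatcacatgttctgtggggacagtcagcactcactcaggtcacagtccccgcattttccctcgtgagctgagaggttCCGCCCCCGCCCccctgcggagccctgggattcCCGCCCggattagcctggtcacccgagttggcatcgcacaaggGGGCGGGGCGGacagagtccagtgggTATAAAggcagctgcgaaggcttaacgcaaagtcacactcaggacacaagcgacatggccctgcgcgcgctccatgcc
Tgfb2, chr13:100792636-100792935, minus strand: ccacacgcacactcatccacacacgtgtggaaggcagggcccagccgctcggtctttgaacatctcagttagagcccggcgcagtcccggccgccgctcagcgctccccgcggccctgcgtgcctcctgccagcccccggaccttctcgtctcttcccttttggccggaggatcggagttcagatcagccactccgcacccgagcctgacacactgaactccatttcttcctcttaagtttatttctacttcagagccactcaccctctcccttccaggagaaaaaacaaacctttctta
Tgfb3, chr6:111456897-111457196, minus strand: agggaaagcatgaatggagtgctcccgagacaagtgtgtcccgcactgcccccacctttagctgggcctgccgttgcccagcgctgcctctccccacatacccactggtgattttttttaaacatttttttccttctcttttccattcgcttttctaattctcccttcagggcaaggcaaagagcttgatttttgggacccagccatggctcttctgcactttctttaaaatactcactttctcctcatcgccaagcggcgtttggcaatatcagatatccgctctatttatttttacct

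Inhba and Gdf15 each held a TATA box, with its first base 40 and 28 bases before the start, in letters shared by 14.2% of the 33469 promoters searched. Gdf15 also held 5 GC boxes (33.1% of promoters held at least 1), and Inhba held the Smad letters 2 bases before its start (21.1%). The AP-1 letters (7.33% of promoters) and the cAMP response element (1.83%) were in none of the members' windows. None of the 5 motifs was found in the windows of Tgfb1, Tgfb2 or Tgfb3 or in the other Gdf15 entry, while Grem1, Tgfbr1 and Bmp4 each held 3 GC boxes and Bmp4 also the Smad letters on the opposite strand. The windows of Inhba and Tgfb3 had the lowest GC content of the members, 45.7% and 47.7%, against a median of 51.7% over all promoters, and Tgfbr1 had the highest, 74.7%. These matches describe letters only.

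In the bled knee the TGF-beta superfamily ligands split into a higher and a lower group. Against the contralateral knee of the same rats, Tgfb1, Inhba, Gdf15 and Grem1 rose and Tgfb2, Tgfb3, Bmp2 and Bmp4 fell. Thus 8 of the 9 members passed an adjusted p of 0.05 in limma with Benjamini-Hochberg adjustment over all probe sets. That fit was not paired by rat. With rat as a fixed term in limma, Grem1 did not pass (adjusted p = 0.0943) and Tgfbr1 did (0.0410). In the same comparison 34.7% of all probe sets passed, a share that includes probe sets without a listed symbol. Against the sham knee 8 of 9 passed as well, where 38.7% of probe sets did, but not the same 8: Tgfbr1 rose and Grem1 did not pass. Since these are whole-tissue samples, fewer cells of a type and less RNA per cell cannot be told apart.

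**Figure D1:**
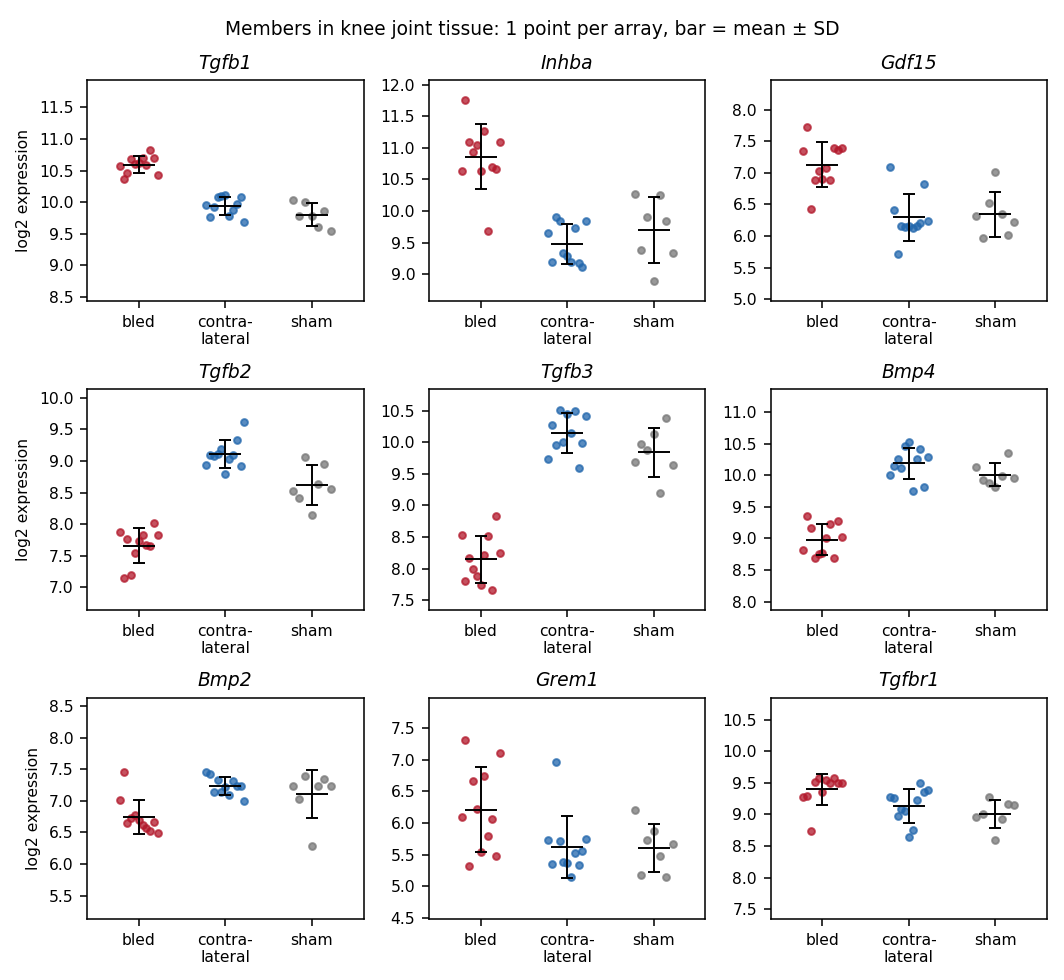
Log2 expression of the 9 members in knee tissue, 1 point per array, in the bled (n = 11), contralateral (n = 11) and sham (n = 7) knees; bars give mean ± SD, and every panel spans the same number of log2 units around its own centre. Tgfb1 lay higher and Tgfb2, Tgfb3 and Bmp4 lower in every bled knee than in any other knee. The share of all probe sets that separated in this way was not counted.

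Tgfb1 encodes the isoform made by most leukocytes, platelets and mesenchymal cells. Its log2 values ran from 10.37 (median 10.6) to 10.82 in the bled knees, from 9.68 (median 9.95) to 10.12 in the contralateral knees and from 9.54 (median 9.79) to 10.03 in the sham knees. The bled knees did not overlap with either other group, and all 11 rats had more in the bled knee, by 0.50 to 0.91. Here and below, overlap was counted for the members alone, so no share over all probe sets stands beside it. The bled knee exceeded the contralateral knee 1.58-fold (95% interval 1.43 to 1.74; log2 difference 0.66 ± 0.07 SE, limma adjusted p = 2.29e-09) and the sham knee 1.73-fold (1.55 to 1.94, adjusted p = 7.98e-10). Among the members it had the narrowest spread in the bled knees (SD 0.13).

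Inhba encodes the beta-A subunit, whose homodimer is activin A. It ranged from 9.69 (median 10.94) to 11.75 in the bled knees, from 9.12 (median 9.34) to 9.90 in the contralateral knees and from 8.89 (median 9.85) to 10.27 in the sham knees. Of the 11 bled knees, 10 were above every contralateral and every sham knee, and only the bled knee of rat K8 fell among them, at 9.69 against 9.73 on its other side. The mean was 2.61-fold above the contralateral knee (2.01 to 3.37; log2 difference 1.38 ± 0.18 SE, adjusted p = 1.81e-07) and 2.24-fold above the sham knee (1.67 to 3.0, adjusted p = 2.59e-05). The difference within a rat reached 2.55 in K2 and 2.07 in K7. The other activin and inhibin subunits on the array, Inha, Inhbb, Inhbc and Inhbe, did not pass the test, with log2 differences between -0.20 and 0.01; they are named after their values were seen.

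Gdf15 ranged from 6.43 (median 7.07) to 7.72 in the bled knees, from 5.71 (median 6.16) to 7.09 in the contralateral knees and from 5.97 (median 6.32) to 7.02 in the sham knees. The groups overlapped, with 5 bled knees above every contralateral knee, yet all 11 rats had more Gdf15 in the bled knee than in their own contralateral knee, by 0.25 (K1) to 1.30 (K2). The bled knee exceeded the contralateral knee 1.78-fold (1.45 to 2.20; log2 difference 0.83 ± 0.15 SE, adjusted p = 2.49e-05) and the sham knee 1.72-fold (1.36 to 2.19, adjusted p = 0.000313). Rat K3 had the lowest value of its group on both sides.

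Tgfb2 and Tgfb3 encode the isoforms best known from mesenchyme, epithelium and smooth muscle. Tgfb3 ranged from 7.67 (median 8.17) to 8.83 in the bled knees, from 9.60 (median 10.14) to 10.51 in the contralateral knees and from 9.19 (median 9.88) to 10.38 in the sham knees. Its level was thus lower in every bled knee than in any other knee, and it had the largest difference of the members: the contralateral knee exceeded the bled knee 3.98-fold (3.25 to 4.89; log2 difference -1.99 ± 0.14 SE, adjusted p = 1.07e-12) and the sham knee exceeded it 3.24-fold (2.56 to 4.08, adjusted p = 6.40e-10). Within rats the difference ran from -2.71 (K6) to -1.16 (K10).

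Tgfb2 ranged from 7.15 (median 7.74) to 8.02 in the bled knees, from 8.80 (median 9.10) to 9.62 in the contralateral knees and from 8.15 (median 8.56) to 9.07 in the sham knees. The bled knees again did not overlap with either group. The contralateral knee exceeded the bled knee 2.73-fold (2.33 to 3.19; log2 difference -1.45 ± 0.11 SE, adjusted p = 2.96e-12) and the sham knee exceeded it 1.94-fold (1.62 to 2.32, adjusted p = 1.98e-07). All 11 rats had less in the bled knee, by differences from -1.95 (K2) to -0.90 (K10).

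Bmp4, a BMP ligand made by mesenchymal and endothelial cells, ranged from 8.69 (median 9.01) to 9.35 in the bled knees, from 9.75 (median 10.25) to 10.53 in the contralateral knees and from 9.82 (median 9.95) to 10.35 in the sham knees. Every bled knee was below every other knee. The contralateral knee exceeded the bled knee 2.31-fold (2.01 to 2.66; log2 difference -1.21 ± 0.10 SE, adjusted p = 1.45e-11) and the sham knee exceeded it 2.03-fold (1.74 to 2.39, adjusted p = 7.15e-09).

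Bmp2, a closely related ligand that drives bone and cartilage formation, changed less. It ranged from 6.49 (median 6.66) to 7.46 in the bled knees, from 7.00 (median 7.23) to 7.46 in the contralateral knees and from 6.29 (median 7.23) to 7.4 in the sham knees. The bled knee of K2, the highest of its group, equalled the highest contralateral knee, and 9 of the 11 bled knees were below every contralateral knee. The contralateral knee exceeded the bled knee 1.41-fold (1.20 to 1.65; log2 difference -0.49 ± 0.11 SE, adjusted p = 0.000505), with 10 of 11 rats lower. Against the sham knee the log2 difference was -0.36 ± 0.13 SE (adjusted p = 0.0209), and this call depended on the settings. It was lost with only the 2 groups in the fit (adjusted p = 0.0597), after quantile normalization (0.0773), after centring the arrays (0.119), and without the sham knee of C3 (-0.32, adjusted p = 0.0577) or of C7 (-0.32, adjusted p = 0.0520). The lowest knee of the sham group, 6.29 in C5, belonged to the array that stood apart, and without it the difference was -0.50 (adjusted p = 0.000218).

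**Figure D2:**
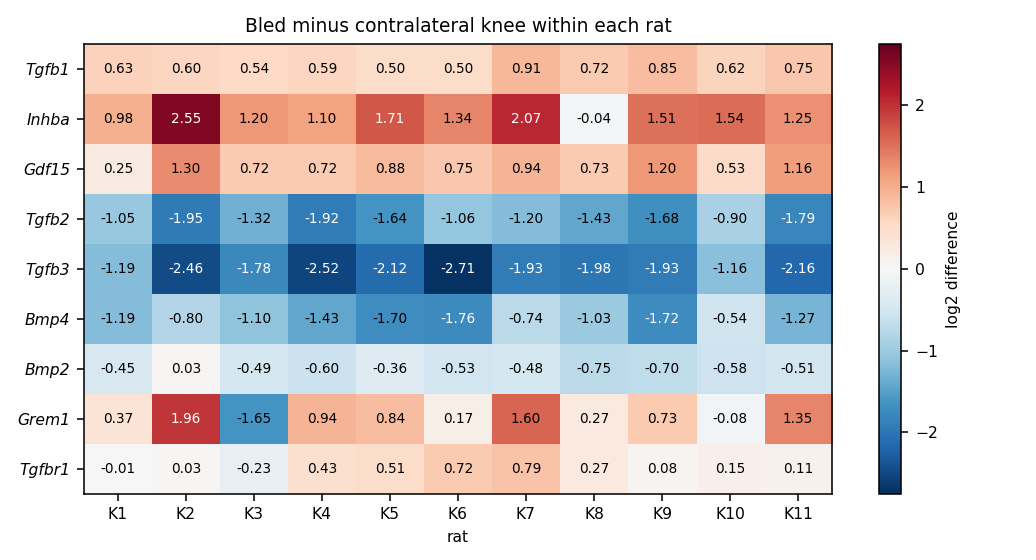
Heat map of the log2 difference between the bled and the contralateral knee, with 1 column for each of the 11 rats and 1 row for each of the 9 members; the number and colour of a cell give the difference, red above 0 and blue below. All 11 cells of Tgfb1 and Gdf15 are above 0 and all 11 of Tgfb2, Tgfb3 and Bmp4 below it, while Grem1 ran from -1.65 in K3 to 1.96 in K2.

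Grem1 encodes gremlin, a secreted antagonist that binds BMP2, BMP4 and BMP7. Its knee signal was low: 3 of 11 bled, 7 of 11 contralateral and 5 of 7 sham values were below the median of their own array. It ranged from 5.32 (median 6.10) to 7.31 in the bled knees, from 5.15 (median 5.53) to 6.97 in the contralateral knees and from 5.14 (median 5.66) to 6.20 in the sham knees. All 3 groups overlapped, and rat K3 held both the lowest bled and the highest contralateral value. The log2 difference to the contralateral knee was 0.59 ± 0.22 SE (1.51-fold, 1.10 to 2.06, limma adjusted p = 0.0360), with 9 of 11 rats higher.

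That Grem1 call was not stable. It was lost with rat as a fixed replicate block (adjusted p = 0.0943) and with only the 2 groups in the fit (0.0501). It was also lost without the bled knee of K2 (0.48, adjusted p = 0.0795), K4 (0.55, 0.0643), K7 (0.54, 0.0683) or K11 (0.50, 0.0770). Leaving out the contralateral knee of K2 (0.56, 0.0572), K5 (0.57, 0.0567), K6 (0.57, 0.0570), K7 (0.54, 0.0648), K8 (0.58, 0.0503) or K9 (0.56, 0.0577) ended it as well. Against the sham knee Grem1 had a log2 difference of 0.60 ± 0.25 SE that did not pass (adjusted p = 0.0558), with adjusted p from 0.0259 to 0.0748 over the alternatives.

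Tgfbr1 encodes the type I TGF-beta receptor kinase. It ranged from 8.74 (median 9.50) to 9.58 in the bled knees, from 8.64 (median 9.23) to 9.50 in the contralateral knees and from 8.60 (median 9.01) to 9.27 in the sham knees. Apart from K3, at 8.74, the bled knees lay close together between 9.27 and 9.58, and 9 of the 11 were above every sham knee. The difference to the sham knee was 0.39 ± 0.12 SE (1.31-fold, adjusted p = 0.00903), a call that was lost after quantile normalization (0.26, adjusted p = 0.0786). The difference to the contralateral knee, 0.26 ± 0.10 SE, fell just short (adjusted p = 0.0526). It passed under 8 alternatives: with rat as a random or a fixed replicate block (0.0404 and 0.0410), after centring (0.0397), with dim probe sets left out (0.0304), with an intensity trend and robust prior (0.0472), with array weights (0.0127), with 1 probe set per gene (0.0340) and without the sham knee of C5 (0.26, 0.0393). It also passed without the bled knee of K3 (0.32, adjusted p = 0.00552), the contralateral knee of K1 (0.27, 0.0492), K9 (0.30, 0.0257), K10 (0.28, 0.0407) or K11 (0.28, 0.0379). With the skeletal muscle mean as a covariate it was 0.15 (adjusted p = 0.293).

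**Figure D3:**
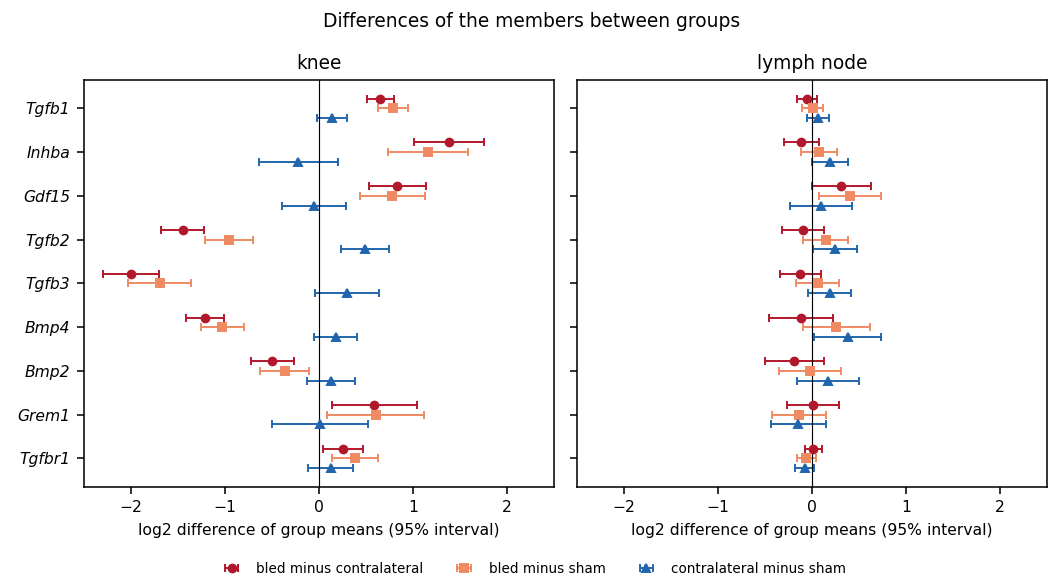
Log2 differences between group means with 95% intervals from limma, in knee (left) and lymph node (right), for the 9 members. Points are the differences, and the colours stand for the 3 comparisons. The intervals are not adjusted for the number of probe sets. In both comparisons of the bled knee those of Tgfb1, Inhba, Gdf15, Grem1 and Tgfbr1 lie above 0. Those of Tgfb2, Tgfb3, Bmp4 and Bmp2 lie below 0. Grem1 against the sham and Tgfbr1 against the contralateral knee were still not called. In the node the intervals of Gdf15 (bled minus sham) and of Tgfb2 and Bmp4 (contralateral minus sham) lie above 0. No node difference passed an adjusted p of 0.05.

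Between the contralateral and the sham knee, neither of which was bled, 1 of 9 members passed, where 1.82% of probe sets did. This was Tgfb2, 0.49 ± 0.13 SE higher in the contralateral knee (1.41-fold, 1.18 to 1.68, limma adjusted p = 0.0343), with 7 of 11 contralateral knees above every sham knee. The call was lost without the sham knee of C5 (0.42, adjusted p = 0.108), with array weights (0.43, 0.0980) and with only the 2 groups in the fit (0.0593). It was also lost without the sham knee of C1 (0.48, 0.0620), C2 (0.46, 0.0624), C6 (0.50, 0.0582) or C9 (0.48, 0.0654), and without the contralateral knee of K5 (0.48, 0.0544), K9 (0.47, 0.0555) or K11 (0.44, 0.0567). The other 8 members had differences between -0.22 (Inhba, 95% interval -0.64 to 0.20) and 0.30 (Tgfb3, -0.04 to 0.64).

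Several cell type marker lists were higher in the bled knee. Of 10 macrophage and monocyte markers 7 rose and 1 fell against the contralateral knee, and the mean log2 level of the list lay between 10.63 and 11.18 in bled, 9.22 and 9.71 in contralateral and 9.15 and 9.41 in sham knees. Arg1 (mean 5.22 in contralateral, 11.16 in bled knees) and Spp1 (8.50 and 12.44) moved this list mean most, and are named after their values were seen. The median log2 difference of the 10 markers was 0.76. Of 8 neutrophil markers 6 rose and 1 fell (list means 7.18 to 9.96, 5.82 to 8.47 and 5.67 to 5.96), and of 7 T cell markers 6 rose and 1 fell. The bled knees were thus the group with the highest means of these lists and of Tgfb1, Inhba and Gdf15.

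Several other cell type lists were lower in the bled knee. All 8 adipocyte markers fell (8.26 to 10.01 in bled, 11.18 to 11.89 in contralateral and 11.03 to 11.73 in sham knees), as did all 6 measured endothelial markers (9.10 to 9.79, 10.05 to 10.80 and 10.06 to 10.66). Of 9 measured fibroblast and synovial lining markers 6 fell and 1 rose (10.42 to 11.09, 11.10 to 11.51 and 11.10 to 11.46), with Prg4 itself at 13.15 and 13.2 in bled and contralateral knees. Of 7 measured chondrocyte markers 2 fell against the contralateral and 4 against the sham knee. Their list means ran from 5.16 to 6.13 in bled, 5.91 to 7.62 in contralateral and 6.47 to 7.88 in sham knees. Against the contralateral knee 1 of 6 osteoblast and osteoclast markers fell. None of 4 measured B cell and 3 measured erythroid markers passed there. Of 5 measured platelet markers 1, Pf4, rose. The 7 measured skeletal muscle markers varied widely within every knee group (6.19 to 12.31, 6.42 to 12.7 and 6.44 to 12.65), and with their mean as a covariate 8 members passed against the contralateral knee and 8 against the sham knee. The part of the other cell types in the members' differences was not tested.

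In the popliteal node none of the 9 members passed in any of the 3 comparisons by limma. Inhba, Tgfb2 and Gdf15 were dim in nodes, with group means of 6.02 to 6.21, 5.96 to 6.21 and 6.01 to 6.41. Node array medians were 5.69 to 5.93, so a change of these members there may be compressed or missed. Between the bled-side and the contralateral node 0% of probe sets passed. An unadjusted p under 0.05 was found for 0 members and for 860 probe sets (2.34%). The largest member difference there was that of Gdf15, 0.31 ± 0.15 SE (95% interval -0.0025 to 0.62), higher in 8 of 11 rats. Rat K11 differed by 1.41, and without its bled-side array the value was 0.19. For Tgfb1 the node interval was -0.16 to 0.05, which does not reach its knee difference of 0.66.

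Between the bled-side and the sham node 4.26% of probe sets passed, and Gdf15 was the member with an unadjusted p under 0.05. It ranged from 5.83 (median 6.36) to 7.56 in the bled-side nodes, from 5.57 (median 6.13) to 6.68 in the contralateral nodes and from 5.67 (median 5.98) to 6.33 in the sham nodes. The 7.56 came from rat K11, and 6 of the 11 bled-side nodes were above every sham node. The log2 difference of 0.40 ± 0.16 SE did not pass (adjusted p = 0.156).

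Between the contralateral and the sham node 5.03% of probe sets passed, and Tgfb2 (0.24 ± 0.12 SE, adjusted p = 0.239) and Bmp4 (0.38 ± 0.17 SE, adjusted p = 0.224) had unadjusted p under 0.05. For both the lowest sham value came from C9, at 5.41 and 6.12, the node array that stood apart. Without C9 the differences were 0.17 and 0.21, and without C2 and C9 they were 0.11 and 0.18. No member separated any pair of node groups without overlap.

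**Figure D4:**
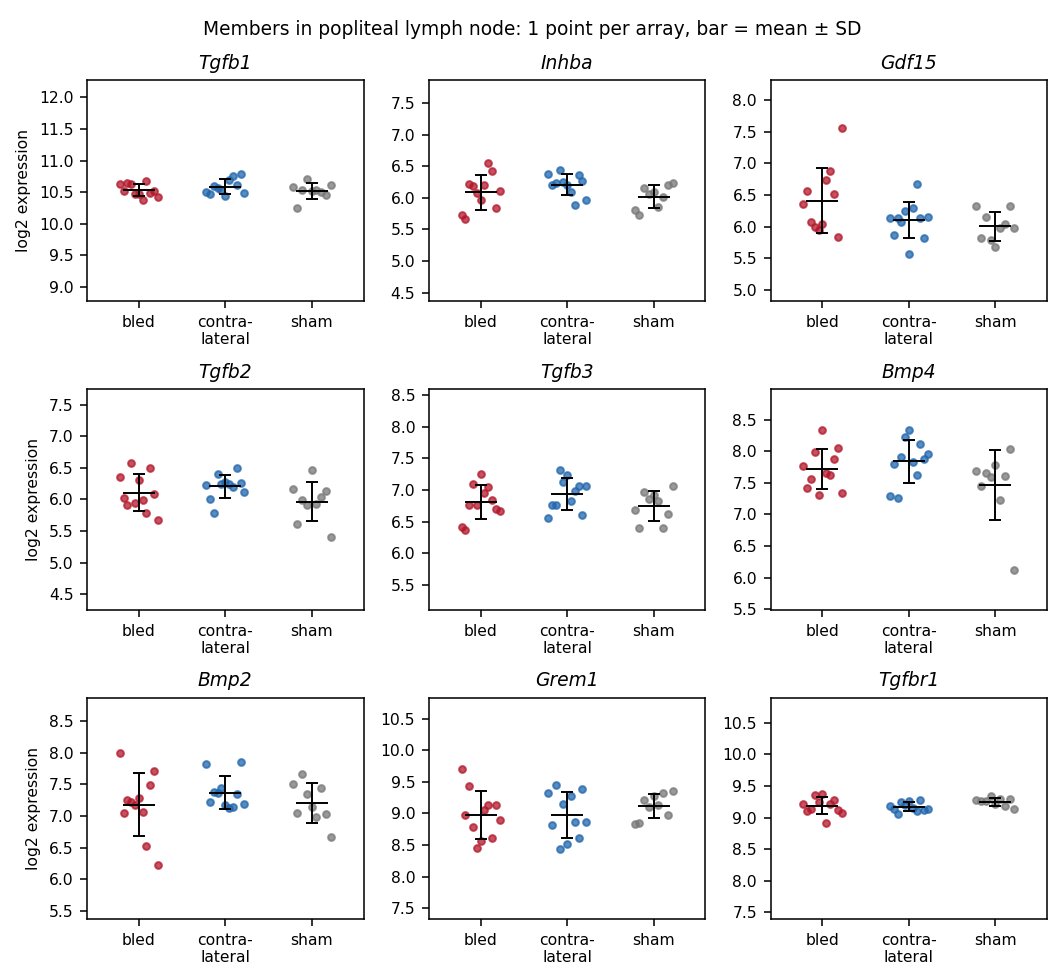
Log2 expression of the 9 members in the popliteal lymph node, 1 point per array, in the bled-side (n = 11), contralateral (n = 11) and sham (n = 9) nodes; bars give mean ± SD, on panels that span as many log2 units as those of the knee. The groups overlap for every member, and the sham node of C9 is the lowest point for Bmp4, at 6.12.

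The difference between the tissues was tested itself, in 1 model of all 60 arrays. For the bled against the contralateral side, 5 of 9 members had a knee difference unlike the node difference, where 27.8% of probe sets did: Tgfb1 (0.71 ± 0.08 SE, knee minus node), Inhba (1.5 ± 0.21), Tgfb2 (-1.35 ± 0.16), Tgfb3 (-1.87 ± 0.18) and Bmp4 (-1.09 ± 0.20), with limma adjusted p from 6.65e-13 to 7.56e-06. Inhba, Tgfb2 and Gdf15 were dim in the node, which limits the comparison of the tissues for them. Gdf15 did not pass (0.53 ± 0.22 SE, adjusted p = 0.0646), nor did Grem1, Tgfbr1 or Bmp2. Gdf15 passed with dim probe sets left out (0.0377), with array weights (0.0280) and with 1 probe set per gene (0.0411), and Tgfbr1 passed with array weights (0.0159). For the bled against the sham side, 7 of 9 passed, where 31.3% of probe sets did, the same 5 together with Tgfbr1 (0.45 ± 0.12 SE, adjusted p = 0.00256) and Grem1 (0.75 ± 0.29 SE, adjusted p = 0.0402).

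Single arrays moved some of these calls. Without the bled knee of K3 the count for the bled against the contralateral side was 8, with Gdf15 (0.60, adjusted p = 0.0280), Tgfbr1 (0.31, 0.0123) and Grem1 (0.67, 0.0410) added. Gdf15 alone was added without the contralateral knee of K1 (0.60, 0.0237) or K10 (0.58, 0.0375), the contralateral node of K6 (0.58, 0.0382) or the bled-side node of K8 (0.57, 0.0416) or K11 (0.64, 0.00967). Grem1 was added without the contralateral knee of K3 (0.72, 0.0182), and Tgfbr1 without that of K9 (0.28, 0.0481).

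The Grem1 call for the bled against the sham side was lost in 15 of 60 cases in which 1 array was left out. These were the bled knees of K2 (0.64, adjusted p = 0.0723), K4 (0.70, 0.0592), K7 (0.69, 0.0629) and K11 (0.66, 0.0696), and the sham knees of C2 (0.67, 0.0744), C6 (0.72, 0.0579) and C7 (0.67, 0.0784). In the node they were the bled-side arrays of K4 (0.73, 0.0525), K5 (0.69, 0.0613), K6 (0.70, 0.0587) and K9 (0.71, 0.0570), and the sham arrays of C3 (0.73, 0.0506), C5 (0.73, 0.0539), C7 (0.72, 0.0562) and C9 (0.72, 0.0513).

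The members also differed in which tissue held more of them, which is a description, since the sources used here do not say whether both tissues were normalized together. Inhba, Tgfb3, Tgfb2 and Bmp4 were higher in every knee than in any node; between sham groups the knee exceeded the node by 3.68, 3.09, 2.65 and 2.54 on the log2 scale. Grem1 was the reverse, 8.44 to 9.71 in nodes and 5.14 to 7.31 in knees. Tgfb1 was 0.72 lower in sham knees than in sham nodes with no overlap, and the bled knees had a mean of 10.6 against node group means of 10.52 to 10.58. Tgfbr1, Bmp2 and Gdf15 overlapped between the tissues. How many of all probe sets separated the tissues was not counted.

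The rest of the pathway was described by gene lists. Between bled and contralateral knee 34.7% of all probe sets were called, with a median log2 difference of 0.00. That share includes 17599 probe sets not listed in the annotation, whereas each list gene is the highest-mean probe set of its symbol. The share among such probe sets was not counted, so the list counts are a description. Of 21 measured other superfamily ligands 8 fell and 2 rose, with a median of -0.17. The largest changes were in Gdf10 (-2.63 ± 0.16 SE, adjusted p = 3.91e-14), a BMP3-like ligand, in Bmp5 (-1.45), Bmp6 (-1.44) and Bmp3 (-1.03). All 4 were also lower than in the sham knee. Bmp3 was dim, at a mean of 4.61 in the bled knees.

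Of 15 measured receptors and co-receptors 11 fell and 1, the activin type I receptor Acvr1b, rose by 0.56, and the median was -0.40. Acvr1b is named after its value was seen. Against the sham knee 8 fell and 1 rose. Acvr1c (ALK7), a type I receptor known from fat tissue, went from 8.98 in the contralateral to 5.52 in the bled knee (-3.46 ± 0.17 SE, adjusted p = 2.75e-16). The BMP type I receptor Bmpr1a (-1.22) and the BMP co-receptor Rgma (-1.12) fell. The co-receptor Hjv, known from muscle and liver, differed by -2.01 ± 0.77 SE (adjusted p = 0.0426), and with the skeletal muscle mean as a covariate, added after the data had been seen, by -0.38 (adjusted p = 0.251); against the sham knee it was -1.85 (adjusted p = 0.0986) and, with that covariate, -0.69 (0.0314). Acvr1c fell in the knees in which all 8 adipocyte markers were lower, and the part of those cells in the result was not tested.

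Of 15 measured secreted antagonists other than Grem1, 8 fell and 1 rose, with a median of -0.38. The BMP antagonists Nbl1 (-2.53 ± 0.16 SE, adjusted p = 9.94e-14) and Chrdl1 (-1.01), the BMP-binding protein Twsg1 (-1.87) and the membrane-bound regulator Crim1 (-1.22) changed most. The gene that rose was Fstl3 (0.45), which binds activins; it is named after its value was seen.

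Of 17 measured Smads and intracellular regulators 8 fell and 5 rose, and most changes were small (median -0.10). The transcriptional corepressor Tgif1 rose by 0.94 ± 0.09 SE (adjusted p = 9.50e-10). Smad3, which carries TGF-beta and activin signals, fell by 0.58, its receptor anchor Zfyve9 (SARA) by 0.55 and Smad1, which carries BMP signals, by 0.53.

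Genes that store, release or process latent TGF-beta changed in both directions, 9 lower and 6 higher of 18 measured, with a median of -0.34 that was -0.13 with the skeletal muscle mean as a covariate. The convertase Pcsk6 (-2.11 ± 0.13 SE, adjusted p = 1.77e-14) and the latent TGF-beta binding proteins Ltbp4 (-1.84) and Ltbp3 (-1.40) fell. Emilin1, an extracellular protein known to bind the TGF-beta precursor, rose by 1.43 ± 0.13 SE (adjusted p = 6.92e-11).

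TGF-beta response genes split, 5 higher and 7 lower of 16 measured (median -0.15). The collagen cross-linking enzyme Lox (1.56 ± 0.22 SE, adjusted p = 4.18e-07) and the transcription factor Snai1 (1.44) rose, and the smooth muscle protein Tagln (-1.40) and the NADPH oxidase Nox4 (-1.35 ± 0.21 SE, adjusted p = 4.27e-06) fell. Nox4 did not differ in the same way from the sham knee: the bled knee differed from it by 0.00 ± 0.24 SE (adjusted p = 0.998), and the contralateral knee was 1.35 ± 0.24 SE above the sham knee (adjusted p = 0.00140).

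Of 14 BMP response genes 7 fell and 2 rose (median -0.22). The homeobox genes Dlx3 (-1.47 ± 0.19 SE, adjusted p = 1.52e-07) and Dlx5 (-0.94) and the inhibitor of differentiation Id4 (-1.33) fell, while the osteoblast transcription factor Runx2 rose by 1.34 ± 0.13 SE (adjusted p = 2.93e-10).

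Genes of the integrated stress response and p53 that are known companions of Gdf15 moved in both directions: 3 of 15 measured rose and 6 fell (median -0.17). Against the sham knee 3 rose and 3 fell (median 0.00039). With the skeletal muscle mean as a covariate 5 rose and 5 fell against the contralateral knee (median 0.09), with Atf4 (0.31, adjusted p = 0.00272) and Ppp1r15a (0.35, 0.0306) added to those higher, named after their values were seen. The cystine transporter Slc7a11 rose by 1.93 ± 0.14 SE (adjusted p = 1.22e-12). Nupr1 (-1.40), Atf5 (-1.31) and Ddit3 (-0.84) fell. Against the sham knee Ddit3 was not called (-0.33, adjusted p = 0.0954), though it was without the sham knee of C5 (-0.43, 0.0308).

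**Figure D5:**
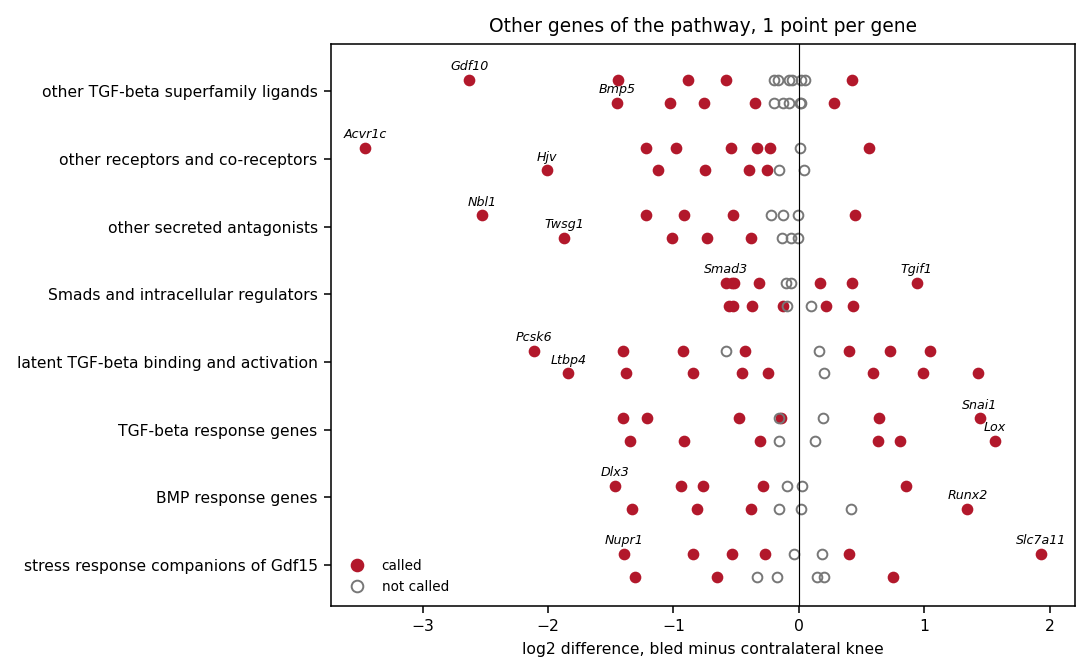
Log2 difference between bled and contralateral knee for the measured genes of the 8 pathway lists, 1 point per gene; filled points passed an adjusted p of 0.05 and open points did not, and points are set on 2 levels per list only to keep them apart. Most called receptors (11 of 12) and antagonists (8 of 9) lie below 0, while latent TGF-beta and TGF-beta response genes lie on both sides.

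In the contralateral against the sham knee 12 of the 131 measured list genes passed (9.16%, where 1.82% of all probe sets did), 4 higher and 8 lower, and they are named after their values were seen. The TGF-beta response list held 7 of them among 16 measured genes: Col5a1 (-0.91), Postn (-0.76), Col1a1 (-0.66), Col1a2 (-0.50) and Col3a1 (-0.48) were lower in the contralateral knee, and Nox4 and Junb (0.70) higher. The matrix gene Fbn1 (-0.78), the antagonist Fst (-0.68) and Bmp1 (-0.34), a procollagen proteinase, were lower, and Gdf10 (0.87) and Runx2 (0.55) higher. Without the sham knee of C5 all of these kept their call but Runx2 (0.55, adjusted p = 0.0779), and no other list gene was added.

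In the node 0 of the 131 list genes passed between the sides by limma. Against the sham node 4.26% of all probe sets passed on the bled side, 1.91% higher and 2.34% lower. Of the list genes 8 of 131 passed (6.11%), all higher. They were Asns (0.66, adjusted p = 0.00155), Id1 (0.59, 0.0111), Junb (0.53), Runx2 (0.43), Cdkn1a (0.41), Snai1 (0.38), Rgma (0.35) and Id2 (0.22), named after their values were seen, as are the other node genes. Without the sham nodes of C2 and C9, Asns, Id1, Runx2 and Rgma passed and Junb (adjusted p = 0.0728), Cdkn1a (0.0557), Snai1 (0.206) and Id2 (0.0916) did not, while Atf5 (0.24, 0.0403) was added, for 5 in all.

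On the contralateral side 8 of 131 passed against the sham node (6.11%, where 5.03% of all probe sets did, 2.22% higher and 2.81% lower). Asns, Chrdl1, Runx2, Dcn, Cdkn1a, Rgma and Nox4 were higher and Smad2 lower. Without C2 and C9, 4 passed. Asns (0.49, adjusted p = 0.0136) and Runx2 (0.44, 0.0359) kept their call, and Atf5 (0.24, 0.0383) and Nrros (-0.22, 0.0103), a protein that anchors latent TGF-beta on macrophages, were added.

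Some cell type markers also differed from the sham node, where 4.26% (bled side) and 5.03% (contralateral side) of all probe sets passed. No neutrophil, T cell, B cell, platelet, erythroid, chondrocyte, osteoblast, osteoclast or endothelial marker passed on either side. On the bled side 1 of 7 skeletal muscle markers was lower and 1 of 8 node stroma markers higher. Adipocyte marker means were 7.06 to 9.09 in sham, 7.15 to 9.35 in bled-side and 8.47 to 9.28 in contralateral nodes, and 2 and 4 of the 8 markers passed against the sham node on the bled and the contralateral side. Fibroblast marker means were 9.08 to 9.54 in sham, 9.51 to 10.07 in bled-side and 9.58 to 10.07 in contralateral nodes, with 2 and 4 of 9 higher. Of 10 macrophage markers 2, Cd163 and Cd14, were higher on both sides, Cd163 at a mean of 8.61 in sham nodes against 9.83 and 9.89. The part of these cells in the differences was not tested.

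Genes whose deviations from the group means were most like a member's over the 29 knee arrays were sought among 18165 others. These correlations share arrays, dissection and RNA quality and are given as a description. Tgfb3 had the closest matches, the smooth muscle and actin-binding genes Synpo2 (r = 0.912) and Myh11 (r = 0.911). Next came Tgfbr1 with Xylb (0.855) and Atp6ap1 (0.843), Tgfb2 with Lrrc49 (0.836) and Ak3 (0.820), and Bmp2 with Xab2 (0.815) and Cars1 (0.803). Tgfb1 was nearest to Adam15 (0.788) and Sh3bp1 (0.767), and Inhba to Chsy1 (0.745) and Ndel1 (0.691). Gdf15 (Slc14a1, 0.718, and Or6d12c, 0.706), Grem1 (Fbxo27, 0.697, and St6galnac1, 0.680) and Bmp4 (Sulf1, 0.679, and Zfp37, 0.666) had the loosest matches. Each match is among the highest of 18165 correlations over 29 arrays. The level that unrelated genes would reach was not computed, so a match need not be a link between the genes.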

How the data were processed

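The 60 arrays (Affymetrix rat gene arrays, 29 of knee tissue and 31 of popliteal node) were analysed from the series' value table. Per the submitters' processing notes, the authors made the deposited log2 values with RMA in Affymetrix Expression Console 1.4.46. RMA corrects background, quantile-normalizes arrays and summarises probes on the log2 scale, so small fold changes of dim genes are compressed. For its options, for joint normalization of both tissues and for hybridization batches or scan dates, details are not given in the sources used here. Precision is limited by the number of arrays.

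Of 36685 probe sets, 18511 had 1 annotated symbol, 575 had several and 17599 were not listed in the annotation. The value of a gene is that of its single-symbol probe set with the highest mean. Levels of different probe sets were not compared. Shares of probe sets called are over all 36685, listed or not, and the share over genes was not counted.

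Each tissue was fitted with its 3 groups in limma 3.58.1 (R 4.3.3) over all probe sets with no filter. Probe sets were called at a Benjamini-Hochberg adjusted p under 0.05. Differences between tissues came from 1 model of all 60 arrays. The main fits had no term for rat, so arrays of the same rat were treated as independent. The fits within a tissue were tried on simulated data with independent noise, in which 200 probe sets were changed 2-fold. These data held no rat pairing, so the trial says nothing on pairing or on the model of all 60 arrays. The alternatives were rat as a block, only the groups compared, quantile normalization, median centring, leaving out dim probe sets, a robust intensity trend, array weights, 1 probe set per gene, leaving out arrays, and the skeletal muscle marker mean as a covariate. For the gene lists, the fits without sham arrays and with the covariate were chosen after seeing the data.

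The labels pair the sides of each of the 11 bled rats. Deviations from the group means correlated within a rat at -0.104 to 0.211 in knees and 0.121 to 0.324 in nodes (duplicateCorrelation 0.0782 and 0.266). The members, gene lists and marker lists were chosen with earlier results of these data known. Besides the members, the text names up to 4 called genes of each pathway list, those with the largest difference between bled and contralateral knee. It also names the 2 genes most like each member. Other pathway list genes named in the text are marked. Single cell type markers are named outside this rule. Promoter sequences are from RefSeq (GRCr8), and the array values carry no coordinates here.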

Additional observations from a re-analysis of the deposited data

Results flagged for a closer look

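In the 18 sham groups screened for a single far array (9 members in 2 tissues), chance marks about 1 in 20. The bled and contralateral groups were not screened, so far arrays among them are not listed here. The Bmp2 value of the sham knee of rat C5, 6.29, lay far below the other sham knees. The Bmp4 value of the sham node of rat C9, 6.12, lay far below the other sham nodes.

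For 5 members the difference between the bled and the contralateral side was unlike in knee and node, given as knee minus node in log2: 0.71 for Tgfb1, -1.35 for Tgfb2, -1.87 for Tgfb3, 1.5 for Inhba and -1.09 for Bmp4. For 7 members the difference between the bled and the sham side was unlike in knee and node: 0.79 for Tgfb1, -1.10 for Tgfb2, -1.75 for Tgfb3, 0.45 for Tgfbr1, 1.09 for Inhba, -1.28 for Bmp4 and 0.75 for Grem1. All 12 are listed because they passed limma's test of the difference itself, the last with adjusted p = 0.0402. Of all probe sets, 27.8% passed this test for the contralateral side and 31.3% for the sham side.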

How the results depend on the processing

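Of 72 member values, 29 were called, and 24 of these kept their direction and their call under every alternative run and every array left out. No called value changed sign. With rat as a replicate block the paired comparison of bled and contralateral knee gave -1.45 for Tgfb2 (limma adjusted p = 1.17e-12). In that comparison a random block changed the call of Tgfbr1 alone (adjusted p = 0.0404). A fixed term for rat changed those of Tgfbr1 (0.0410) and Grem1 (0.0943) alone. The count of members called between contralateral and sham knee, 1, was 0 with only the 2 groups compared, with array weights and without the sham knee of C5, and 0 to 1 with 1 array left out; that of the side difference between tissues was 5 to 8. Values that were not called and turned sign were all small. Between contralateral and sham knee, Gdf15 became 0.0079 after centring, 0.041 with array weights and 0.062 without C5 (-0.13 to 0.062 with 1 array left out), Bmp2 -0.0077 without C5 (-0.0077 to 0.18), and Grem1 -0.0010 with the muscle covariate (-0.12 to 0.11). Between bled-side and sham node, Tgfb1 became -0.027 after quantile normalization, -0.0055 with array weights and -0.019 without C2 and C9 (-0.0275 to 0.03), and Bmp2 0.030 after quantile normalization and 0.034 after centring (-0.10 to 0.074). Between the nodes of the bled rats, leaving out 1 array gave -0.0058 to 0.040 for Tgfbr1 and -0.068 to 0.058 for Grem1. The causes were not tested. A fit on each other probe set of a member was not run, since each member had 1. Dim signal limits Grem1 in knees and Inhba, Tgfb2 and Gdf15 in nodes.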
